A study of Mus musculus with 8 samples.

Results

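Expression of 10 genes of the choroid plexus epithelium was followed across a mouse brain RNA-seq series. They are Ttr, Enpp2, Kl, Sostdc1, Folr1, Aqp1, Slc4a5, Clic6, Abca4 and Otx2, taken by gene name from the deposited tables, which list 54532 genes. All 10 were found, each as 1 row, and all 10 were among the 17182 genes with enough counts to be tested. The libraries came from brains of PBS-perfused mice in 4 groups of 2 libraries. The groups were mice with cerebral amyloid angiopathy (CAA, amyloid deposits in the walls of brain vessels) under chronic restraint stress, CAA mice given a mock treatment, wild-type (WT) mice under chronic restraint stress, and mock-treated WT mice. The sources used here do not give the mouse line that carries CAA, the sex and age of the animals, the length of the stress, or which part of each brain was taken. CAA stress 1 stands for replicate 1 of the CAA stress group, and likewise for the others. The titles do not say that replicates came from separate animals, and p-values reflect nothing but how far these libraries differ. In CAA stress and WT mock the replicates differ in Xist and Y-linked counts, so those are separate animals. In CAA mock and WT stress they do not differ in this way, and the spread there may not be between animals.

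The choroid plexus is a fringe of leaky capillaries and stroma that hangs in the brain ventricles under a single layer of epithelial cells. This epithelium makes cerebrospinal fluid by moving sodium, chloride, bicarbonate and water, and it loads the fluid with carrier proteins, vitamins and growth factor antagonists. It lies beside the ciliated ependymal cells that line the ventricles. In RNA from whole tissue, fewer cells of a type and less RNA per cell cannot be told apart.

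Library totals ran from 17275201 to 18894657 counts. Xist, the RNA of the inactive X chromosome, had 3340 counts in CAA stress 1 and 4575 in WT mock 1, against 0 to 24 in the others, and 4 Y-linked genes summed to 0 counts in those libraries and to 2260 to 2833 in the others. The mean level of 10 striatal markers, as log2 CPM (counts scaled to library size) centred on each gene's mean over the libraries, was -2.06 in CAA mock 2 and -2.25 in WT mock 1, against 0.06 to 1.09 elsewhere. For 12 hypothalamic markers it was -1.33 and -2.51 in the same libraries, against -0.19 to 1.79 elsewhere. The 9 olfactory bulb markers ranged from -2.03 in WT mock 1 to 1.64 in WT stress 2. Tissue content therefore differed between replicates of a group on these markers, and its part in the results was not tested.

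Among the secreted products, Ttr encodes transthyretin, which carries thyroxine and retinol-binding protein and is a hallmark transcript of this epithelium. Its level, in FPKM (fragments normalized to gene length and sequencing depth, the authors' values), was 298 and 3.0 in CAA stress 1 and 2, 130 and 2.16 in CAA mock 1 and 2, 7.24 and 364 in WT stress 1 and 2, and 29.9 and 2.69 in WT mock 1 and 2. Every group thus had a high and a low library, and the groups overlapped. In CPM scaled by TMM, the higher replicate exceeded the lower 99.6-fold in CAA stress, 60.3-fold in CAA mock, 50.3-fold in WT stress and 11.1-fold in WT mock. The highest group mean exceeded the lowest 11.4-fold. Of all 18650 Ttr counts in the series, 79.8% fell in WT stress 2 and CAA stress 1.

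Kl encodes klotho, the co-receptor for FGF23 that the epithelium also sheds. It had 334 and 107 counts in CAA stress 1 and 2, 169 and 56 in CAA mock, 66 and 417 in WT stress, and 122 and 44 in WT mock. Sostdc1, a secreted antagonist of BMP signalling that also modulates Wnt signalling, had 63 and 9 counts in CAA stress, 21 and 18 in CAA mock, 6 and 92 in WT stress, and 19 and 2 in WT mock. Both genes were highest in WT stress 2, next in CAA stress 1 and then in CAA mock 1, the order that Ttr followed. The other WT stress replicate was in the lower part of the order for both.

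Folr1 encodes folate receptor alpha, which carries folate across the epithelium into the fluid. It had 52 and 6 counts in CAA stress 1 and 2, 34 and 5 in CAA mock, 7 and 86 in WT stress, and 4 and 1 in WT mock. Slc4a5, a sodium bicarbonate cotransporter of the fluid-facing membrane, had 81 and 1 counts in CAA stress, 28 and 3 in CAA mock, 0 and 82 in WT stress, and 16 and 0 in WT mock. The same 3 libraries led for both. Taking a count of 0 as at most 3 counts in that library, Slc4a5 was at least 27.5-fold higher in WT stress 2 than in WT stress 1. For Folr1, both CAA mock libraries lay above both WT mock libraries, as for 16.2% of all genes tested.

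Enpp2 encodes autotaxin, the secreted enzyme that makes lysophosphatidic acid, and oligodendrocytes make it too. Its level was 62.1 and 23.9 FPKM in CAA stress 1 and 2, 33.8 and 39.3 in CAA mock, 32.3 and 77.9 in WT stress, and 36.6 and 29.4 in WT mock. It was high in WT stress 2 and CAA stress 1, like Ttr, but its other 6 libraries stayed within 23.9 to 39.3 FPKM. The 9 oligodendrocyte markers, all tested and none at 0, summed to 6132 to 14273 CPM in CAA stress, 9594 to 15624 in CAA mock, 6019 to 8840 in WT stress and 7503 to 9662 in WT mock. CAA mock 2 had the highest sum of these markers and, at 39.3 FPKM, the highest Enpp2 level after WT stress 2 and CAA stress 1. CAA stress 1 had the next highest sum, 14273 CPM, while WT stress 2, the library highest in Enpp2, had 8840 CPM. The part of oligodendrocytes in the Enpp2 values was not tested.

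Aqp1, the water channel of the fluid-facing membrane, had 82 and 68 counts in CAA stress 1 and 2, 29 and 10 in CAA mock, 40 and 99 in WT stress, and 7 and 61 in WT mock. Clic6, a member of the chloride intracellular channel family, had 430 and 151 counts in CAA stress, 293 and 6 in CAA mock, 139 and 472 in WT stress, and 37 and 271 in WT mock. Both genes also led in WT stress 2 and CAA stress 1. They had 61 and 271 counts in WT mock 2, which held 59 Ttr counts. Abca4, a lipid transporter best known for clearing retinoids in photoreceptors, had 97 and 61 counts in CAA stress, 31 and 20 in CAA mock, 50 and 128 in WT stress, and 14 and 29 in WT mock. All 4 stress libraries lay above all 4 mock libraries for Abca4, as for 0.96% of all genes tested. Aqp1, Clic6 and Abca4 were all lowest in CAA mock 2 and WT mock 1, the libraries low in striatal and hypothalamic markers, and Ttr was also lowest in CAA mock 2.

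Otx2, the homeodomain factor that specifies this epithelium and is kept on in the adult, had 72 and 21 counts in CAA stress 1 and 2, 24 and 90 in CAA mock, 3 and 107 in WT stress, and 83 and 12 in WT mock. It was the only 1 of the 10 genes whose 2 highest libraries were not WT stress 2 and CAA stress 1: CAA mock 2 and WT mock 1 followed WT stress 2. Those libraries held 47 and 685 Ttr counts. Its antisense neighbour Otx2os1 had 5 and 0 counts in CAA stress 1 and 2, 2 and 6 in CAA mock, 0 and 9 in WT stress, and 7 and 1 in WT mock. The strand setting of the counting is unknown, and reads in the overlap of Otx2 and Otx2os1 cannot be told apart.

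Promoters were searched because several of the genes varied together and Otx2 is a DNA-binding factor. The RefSeq promoter table (GRCm38.p6, 250 bases before to 50 after a start) held 5 of the members (Abca4, Aqp1, Kl, Otx2, Slc4a5) with 8 starts. TAATCC, the core bound by Otx2-type homeodomains, was searched on both strands and found for 2 of the 5 genes, Abca4 and Otx2. The share was 8.14% of the 27025 genes in the table and 3 of 39 other choroid plexus genes (7.69%). Otx2 has several starts in the table. Counted per start, TAATCC was in 2 of 8, against 7.06% of all 32851. Abca4 and Otx2 did not vary together over the 8 libraries (Pearson's r of log2 CPM 0.03). TAATTA is a core of other homeodomains that reads the same on both strands, and it overlaps no TAATCC in these promoters. It was present for 2 of the 5 genes, against 6.12% of all genes, and in 3 of the 8 starts, against 5.29% of all starts. The 2 promoters with TAATCC are printed in the direction of the gene, with the motif in capitals, which reads GGATTA because it lies on the opposite strand. Abca4 is shown from chr3:122044210-122044509 on the plus strand, with the motif 58 bases before the start, and Otx2 from chr14:48665060-48665359 on the minus strand, with the motif 211 bases before that start, which lies inside the Otx2 gene.
Abca4: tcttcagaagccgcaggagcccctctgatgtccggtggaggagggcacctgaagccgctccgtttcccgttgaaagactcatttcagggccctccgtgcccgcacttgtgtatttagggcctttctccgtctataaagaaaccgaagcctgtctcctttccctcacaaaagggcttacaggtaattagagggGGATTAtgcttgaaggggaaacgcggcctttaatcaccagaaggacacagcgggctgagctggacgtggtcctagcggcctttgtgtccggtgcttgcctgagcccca
Otx2: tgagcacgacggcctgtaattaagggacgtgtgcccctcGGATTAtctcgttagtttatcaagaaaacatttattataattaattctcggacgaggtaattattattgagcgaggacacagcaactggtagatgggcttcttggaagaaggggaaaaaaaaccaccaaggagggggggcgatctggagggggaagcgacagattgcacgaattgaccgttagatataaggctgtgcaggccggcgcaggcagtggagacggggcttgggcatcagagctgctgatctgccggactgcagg
A match describes these letters and is not a binding site shown by these data.

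**Figure D1:**
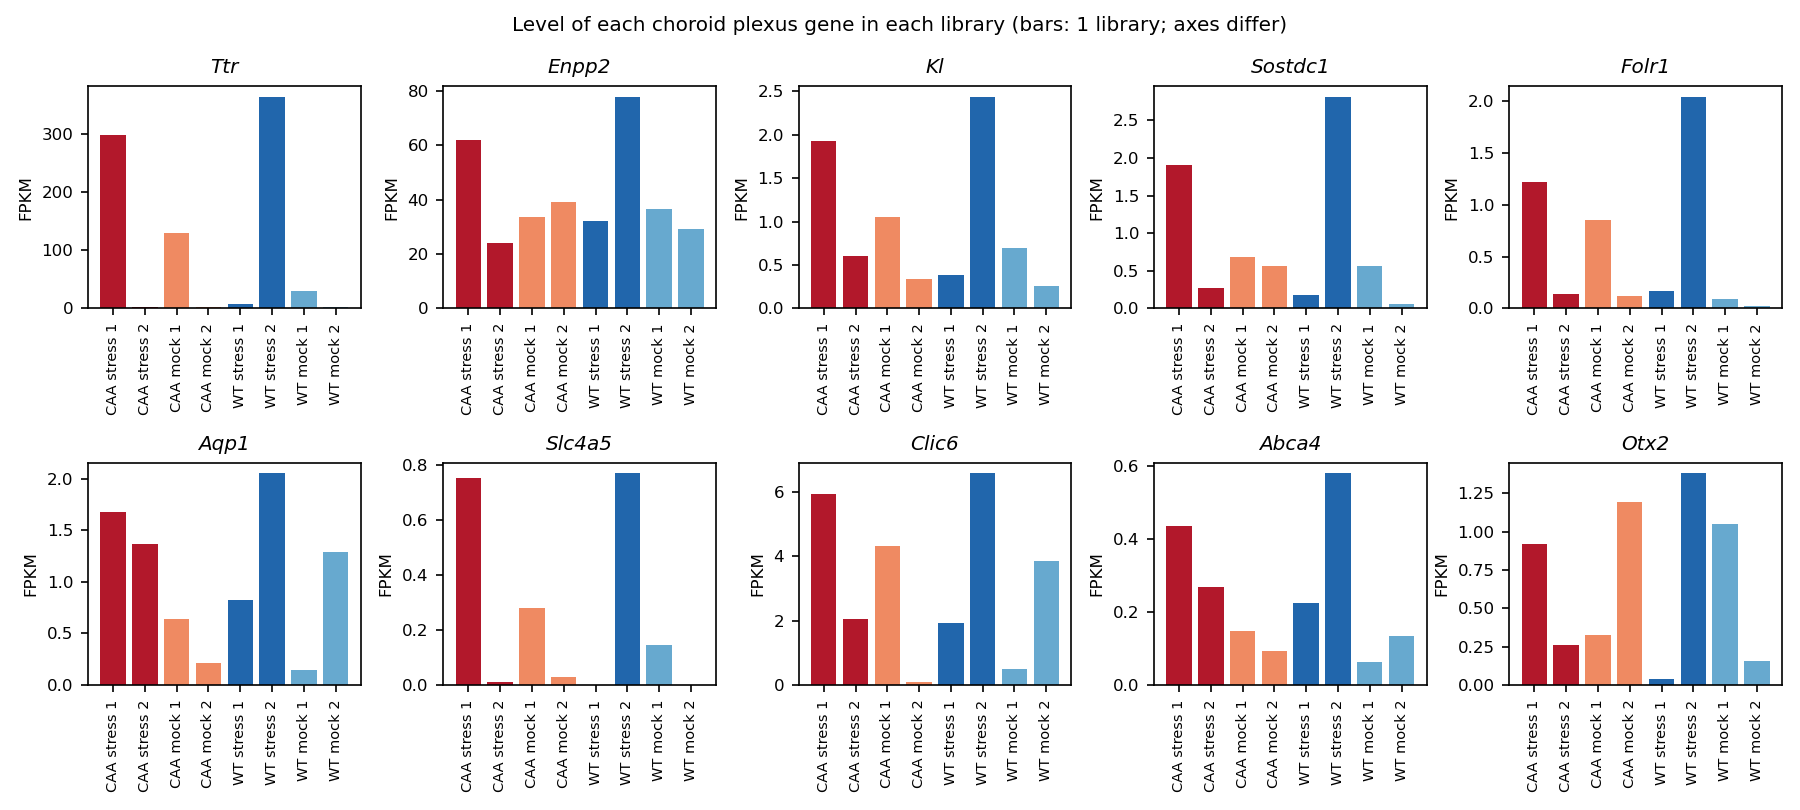
Level of each of the 10 genes in FPKM (y axis, scale differs between panels), with 1 bar per library, grouped as CAA stress, CAA mock, WT stress and WT mock. WT stress 2 is the tallest bar in all 10 panels, and Ttr reaches 364 FPKM there against 7.24 FPKM in WT stress 1.

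Levels between genes were compared per length. Ttr had the highest mean over the 8 libraries, 105 FPKM, followed by Enpp2 at 41.9 FPKM and Clic6 at 3.15 FPKM, and the other 7 averaged 0.243 to 1.03 FPKM. The median put Enpp2 first at 35.2 FPKM and Ttr second at 18.6 FPKM. The group with the highest mean was WT stress for 8 genes, CAA stress for Aqp1 and CAA mock for Otx2. Of the 30 neighbouring pairs of groups in these orders, 28 had overlapping libraries. The exceptions were Abca4 between CAA stress and CAA mock (0.352 and 0.121 FPKM) and Folr1 between CAA mock and WT mock (0.489 and 0.0585 FPKM). In CPM, 18.3% and 16.2% of all genes tested lay apart between those groups in the same direction.

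The proportions among the genes were then compared as counts per 100 Ttr counts, with exact binomial (Clopper-Pearson) 95% intervals that cover counting error only. Slc4a5 stood at 1.20 (0.951 to 1.49) in CAA stress 1, at 1.02 (0.679 to 1.48) in CAA mock 1 and at 1.01 (0.800 to 1.25) in WT stress 2. Kl stood at 4.95 (4.42 to 5.52), 6.18 (5.26 to 7.22) and 5.12 (4.63 to 5.65) in the same libraries. These are the 3 libraries with the most Ttr, and for both genes their intervals overlap. For Clic6 they do not all overlap, with 10.7 (9.46 to 12.1) in CAA mock 1 against 6.37 (5.76 to 7.02) in CAA stress 1 and 5.80 (5.27 to 6.36) in WT stress 2, and for Enpp2 CAA mock 1 also stood apart at 124 (117 to 130). Over them the ratio to Ttr varied 1.15-fold for Aqp1, 1.19-fold for Slc4a5, 1.25-fold for Kl and Enpp2, 1.39-fold for Abca4, 1.47-fold for Sostdc1, 1.5-fold for Otx2, 1.61-fold for Folr1 and 1.85-fold for Clic6. The 3 libraries were picked out by their Ttr counts, so this is a description with no test.

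Where Ttr was low many ratios were higher, which follows in part from Ttr being the divisor. These values too are a description with no test. Clic6 had 219 counts per 100 Ttr counts (164 to 295) in CAA stress 2, 85.3 (67.5 to 108) in WT stress 1 and 459 (345 to 620) in WT mock 2, against 5.80 (5.27 to 6.36) in WT stress 2. Otx2 had 191 (133 to 279) in CAA mock 2 against 0.878 (0.561 to 1.31) in CAA mock 1. Kl ranged from 17.8 to 155 in the 5 libraries with less Ttr. WT mock 1 had 685 Ttr counts. Clic6 at 5.40 (3.77 to 7.52), Aqp1 at 1.02 (0.409 to 2.12) and Folr1 at 0.584 (0.159 to 1.5) were close there to the values of the Ttr-rich libraries. Otx2 at 12.1 (9.53 to 15.2), Kl at 17.8 (14.6 to 21.6), Enpp2 at 580 (535 to 630) and Sostdc1 at 2.77 (1.66 to 4.37) were above them. Slc4a5 at 2.34 (1.33 to 3.82) and Abca4 at 2.04 (1.11 to 3.45) were also higher, with intervals that overlap those of CAA stress 1. Which cells held the RNA was not tested.

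**Figure D2:**
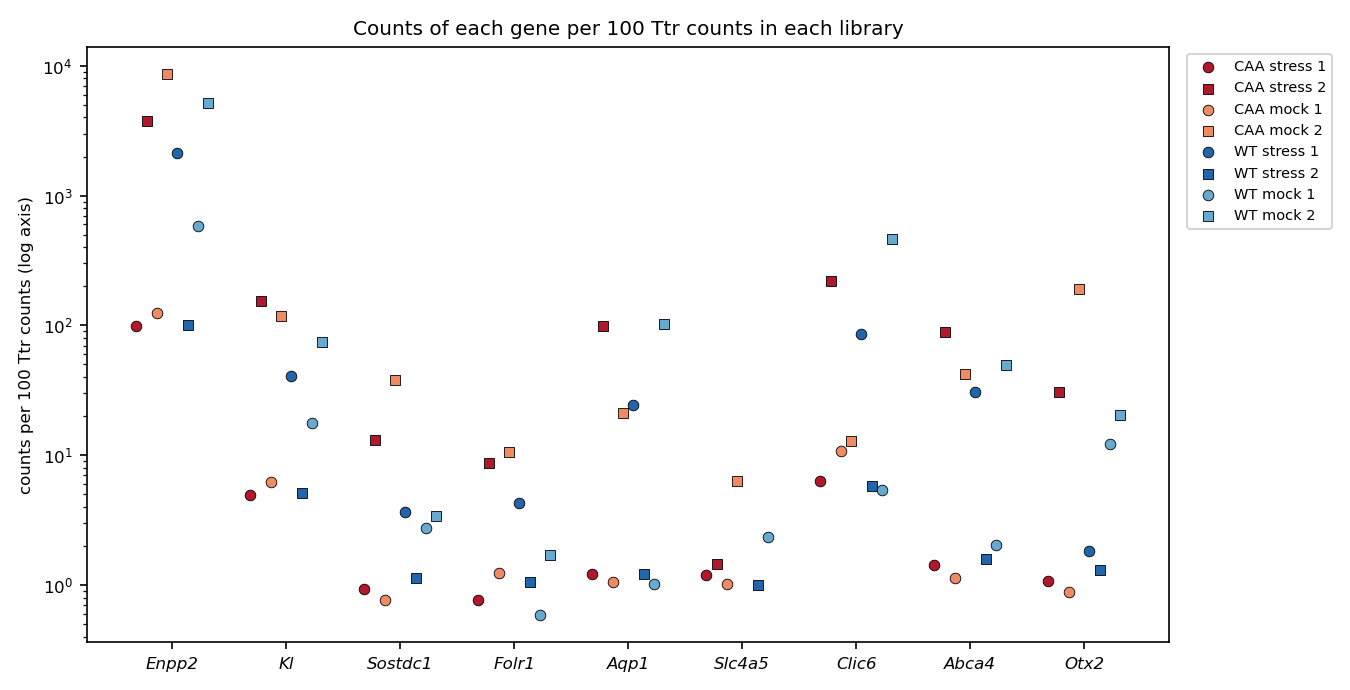
Counts of each of 9 genes per 100 Ttr counts (y axis, log scale), with 1 point per library, coloured by group and shaped by replicate number (circle 1, square 2). Slc4a5 has no point in WT stress 1 and WT mock 2, where it had 0 counts. CAA stress 1, CAA mock 1 and WT stress 2 lie within 1.85-fold of each other for every gene, for example at 1.20, 1.02 and 1.01 for Slc4a5.

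The question of the design was how chronic restraint stress acts in WT and CAA brains. Averaged over genotype, 9 of the 10 genes had a positive log2 fold change for stress over mock, with a median of 1.47, against 0.00335 over all 17182 genes tested. Of all genes tested 50.6% had a positive value. None of the 10 passed in edgeR's quasi-likelihood test after Benjamini-Hochberg adjustment over all genes (0 of 10, adjusted p = 0.920 to 0.995), where 0% of all genes passed. DESeq2 called 0 of the 10, against 0.0102% of its genes, and limma on log2 FPKM called 0. Leaving out WT stress 2 gave a median of 0.19, and leaving out CAA stress 1 gave 0.47. At an unadjusted p under 0.05 there was 1, Abca4, against 3.82% of all genes. Some regional markers also had positive values for stress: 8 of 9 olfactory bulb markers (median 1.38), 10 of 10 striatal markers (median 0.65) and 12 of 12 hypothalamic markers (median 0.75). Of these, 0 were past the threshold in edgeR and 1, 0 and 0 had an unadjusted p under 0.05. Other regions differed, with 3 of 6 cerebellar markers positive (median -0.01) and 1 of 3 brainstem markers (median -0.56). The part of regional tissue in the members' values was not tested.

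The fitted differences came with wide errors. Ttr averaged 207 ± 234 CPM in stress libraries and 50.6 ± 74.5 CPM in mock libraries (SD, n = 4 each), with a log2 fold change of 2.35 ± 2.24 (SE). Folr1 had 2.32 ± 1.16, Slc4a5 1.83 ± 1.85, Sostdc1 1.51 ± 1.03 and Aqp1 1.43 ± 0.65. Kl had 1.22 ± 0.84, Clic6 0.91 ± 1.28, Enpp2 0.49 ± 0.41 and Otx2 -0.06 ± 1.15. The intervals of these 9 genes contain 0, which does not show that stress and mock brains were alike: for Ttr the 95% interval ran from -3.75 to 8.45. Without CAA stress 1 the value for Ttr was -0.47, and Slc4a5 stood at -0.77. Leaving out WT stress 2 gave Slc4a5 a value of -2.35.

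Abca4 differed from the others in its spread. It averaged 4.59 ± 1.98 CPM in stress libraries and 1.33 ± 0.481 CPM in mock libraries (SD, n = 4 each; log2 fold change 1.79 ± 0.39 SE, edgeR unadjusted p = 0.000745, adjusted p = 0.920). This was the 9th smallest p of all genes tested. All 4 stress libraries lay above all 4 mock libraries, as 0.96% of all genes did in this direction. Abca4 had 61 counts in CAA stress 2 and 50 in WT stress 1, libraries with 69 and 163 Ttr counts, and 31 counts in CAA mock 1, with 2735 Ttr counts. Its log2 fold change stayed between 1.37, without WT stress 2, and 2.11, without WT mock 2, when each library was left out in turn, and was 1.41 without CAA mock 2 and WT mock 1. With no filter on low counts it passed (1.79, edgeR adjusted p = 7.78e-05), while its adjusted p was 0.115 in DESeq2 and 0.396 or more under every other alternative run. Aqp1 also passed with no filter (1.43, edgeR adjusted p = 0.0402), against 0.365 or more under every other alternative run, and stood at 0.71 without CAA mock 2 and WT mock 1.

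Within WT mice all 10 log2 fold changes for stress over mock were positive (median 1.80, range 0.23 to 4.16), against 49.6% of all genes, and 0 passed in edgeR or DESeq2, as for 0% of all genes in both. Without WT stress 2 the median was -0.25, and Ttr stood at -1.17, against 3.51 with it. Abca4 had 2.04 ± 0.55 (edgeR adjusted p = 1.0), and 1.20 without WT stress 2, and 1 gene, Abca4, had an unadjusted p under 0.05, against 1.59% of all genes. With no filter on low counts Abca4 passed here too (2.04, edgeR adjusted p = 0.0245), against 0.732 or more under every other alternative run. For Abca4 and Folr1 both WT stress libraries lay above both WT mock libraries, as for 13.2% of all genes, and Folr1 had 4.16 ± 1.79 (edgeR adjusted p = 1.0).

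Within CAA mice 9 of 10 were positive (median 0.87, range -0.36 to 1.84), against 51.4% of all genes. In edgeR 0 passed, as for 0% of all genes, and in DESeq2 0 passed, against 0.0802% of its genes. Without CAA stress 1 the median was -0.90 and Ttr stood at -4.45, against 1.20 with it. Abca4 had 1.54 ± 0.54 and Aqp1 1.84 ± 0.94 (edgeR adjusted p = 0.696 for each), and for both genes the CAA stress libraries lay above the CAA mock libraries, as for 18.3% of all genes. At an unadjusted p under 0.05 there was 1 gene, Abca4, against 6.94% of all genes.

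CAA was compared with WT in the same fit. Averaged over treatment, 7 of 10 genes had a positive log2 fold change for CAA over WT, against 50.2% of all genes, with a median of 0.12 and a range of -0.33 for Aqp1 to 1.14 for Folr1. None passed in edgeR (0 of 10, adjusted p = 0.800 to 0.995), where 0.0116% of all genes passed, and 0 had an unadjusted p under 0.05, against 8.38% of all genes. DESeq2 called 0 of the 10 and 0.364% of its genes. Leaving out WT stress 2 gave a median of 1.44, and leaving out CAA stress 1 gave -0.52. Under mock 9 of 10 were positive, against 50.7% of all genes, with a median of 0.43, and 0 passed in edgeR, against 0.0116% of all genes. DESeq2 called 0 of the 10 there and 0.13% of its genes, and 0 had an unadjusted p under 0.05, against 4% of all genes. Folr1, with both CAA libraries above both WT libraries as for 16.2% of all genes, had 2.98 ± 1.85 (edgeR adjusted p = 0.998). Under stress the median was -0.23 (1.87 without WT stress 2) and 1 of 10 was positive, Aqp1 at 0.09, against 50.7% of all genes. In edgeR 0 passed, against 0.0116% of all genes, in DESeq2 0 passed, against 0.0817% of its genes, and 0 had an unadjusted p under 0.05, against 8.22% of all genes.

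The difference between the stress effects in CAA and in WT mice had a median of -0.63 and was positive for 1 of 10 genes, against 50.4% of all genes, with Folr1 at -3.68 ± 2.32 (edgeR adjusted p = 0.995) and Aqp1, the positive one, at 0.83 ± 1.29. None of the 10 passed in edgeR, where 0% of all genes passed, and none had an unadjusted p under 0.05, against 3.46% of all genes. DESeq2 called 0 of the 10 and 0.0034% of its genes. Without WT stress 2 the median was 1.39.

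**Figure D3:**
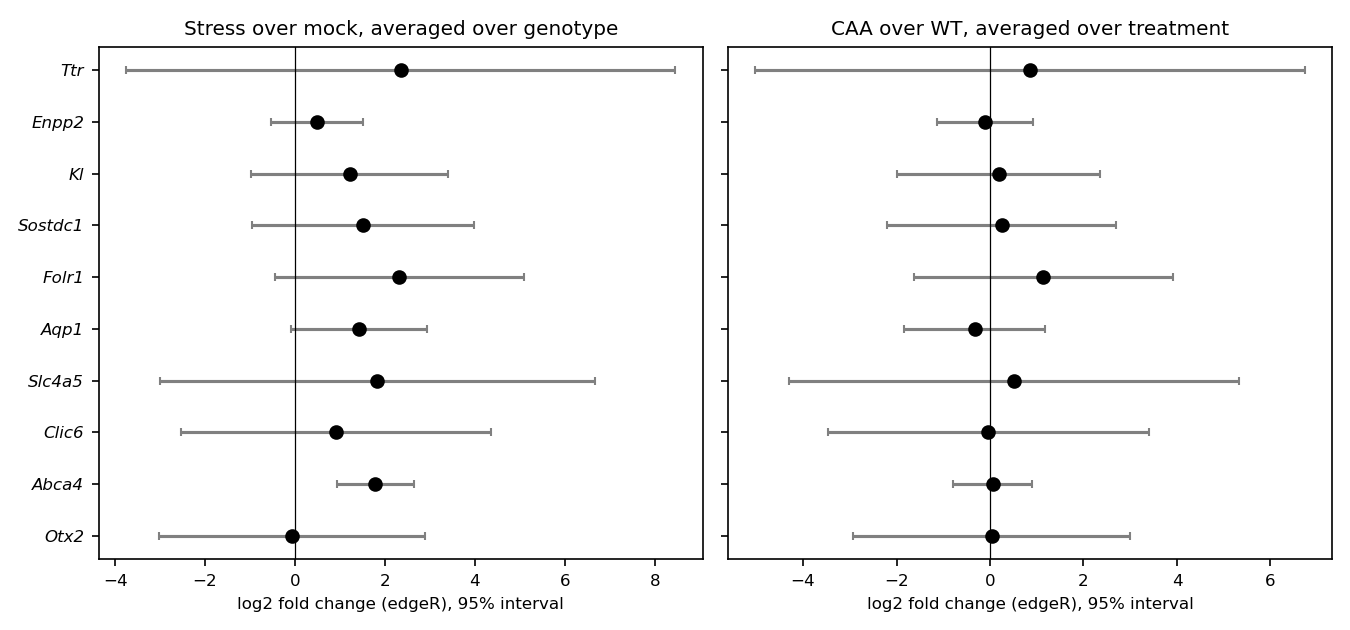
Log2 fold change of each gene (points) with its unadjusted 95% interval (bars) for stress over mock averaged over genotype (left) and for CAA over WT averaged over treatment (right), from edgeR on 8 libraries. The interval of Abca4 for stress, 0.94 to 2.64, is the 1 that leaves out 0, and the interval of Ttr for stress runs from -3.75 to 8.45.

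Another 45 genes known from this epithelium were listed by role, of which 41 were tested. Averaged over genotype 34 of them had a positive log2 fold change for stress and 7 a negative one (median 0.50, against 0.00335 over all genes tested), where 50.6% of all genes were positive. Their mean level, as centred log2 CPM, was highest in WT stress 2 (0.83) and CAA stress 1 (0.68). CAA stress 2 (-0.21) and WT stress 1 (-0.52) lay below CAA mock 1 (0.28) and WT mock 1 (-0.14). CAA mock 2 stood at -0.27 and WT mock 2 at -0.66. How many of these genes stay positive without WT stress 2 or CAA stress 1 was not tested. In edgeR 0 passed, as for 0% of all genes, and 1 of 41 had an unadjusted p under 0.05, against 3.82% of all genes. The 9 tested receptor and other genes had a median of 0.94, the 10 secreted and matrix genes 0.56, the 5 junction and keratin genes 0.57, the 14 transport genes 0.16 and the 3 transcription factors -0.08. For CAA averaged, 32 of 41 were positive (median 0.20), against 50.2% of all genes. In edgeR 0 passed, against 0.0116% of all genes, and 2 of 41 had an unadjusted p under 0.05, against 8.38% of all genes.

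Several of these followed Ttr. Kcne2, a potassium channel subunit, had 49 and 3 counts in CAA stress 1 and 2, 39 and 4 in CAA mock, 4 and 75 in WT stress, and 12 and 3 in WT mock. F5, coagulation factor V, had 97 and 5 counts in CAA stress, 35 and 5 in CAA mock, 22 and 145 in WT stress, and 17 and 5 in WT mock. The tight junction gene Cldn2 had 39 and 10 counts in CAA stress, 24 and 4 in CAA mock, 1 and 38 in WT stress, and 7 and 1 in WT mock. All 3 were highest in the libraries where Ttr was highest. Cldn2 was chosen after its values were seen. The genes with the highest level in the transport, secreted and receptor lists varied less. Slc4a10, a bicarbonate transporter also of neurons, stayed within 29.4 to 48.6 FPKM. Slc12a2, a sodium, potassium and chloride cotransporter, stayed within 11.2 to 21.9 FPKM. Igfbp2, an IGF-binding protein, stayed within 16.3 to 24.4 FPKM, and Htr2c, a serotonin receptor, within 4.61 to 8.98 FPKM. How much of the RNA of these abundant genes came from the choroid plexus was not tested. Sulf1, a heparan sulfate sulfatase, ranged from 0.726 to 2.83 FPKM and was highest in CAA stress 2. Spint2, a protease inhibitor, ranged from 1.94 to 4.68 FPKM and was highest in CAA mock 1, and the tight junction gene Cldn1 ranged from 0.383 to 1.11 FPKM and was highest in CAA mock 2. Among the factors, Msx1 was at 1.37 and 0.684 FPKM in CAA stress, 0.766 and 0.506 in CAA mock, 0.349 and 1.07 in WT stress, and 0.533 and 0.359 in WT mock, and Mcidas stayed within 0.0911 to 0.353 FPKM.

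Likeness was measured as Pearson's r of log2 CPM over the 8 libraries, which share depth and tissue content, and is given as a description. Against the mean of the other 9 genes, r was 0.97 for Kl, 0.94 for Folr1, 0.92 for Ttr, 0.90 for Slc4a5, 0.86 for Sostdc1 and 0.83 for Enpp2, and Spearman's rho for these was 0.98, 0.79, 0.90, 0.80, 0.86 and 0.55. It was 0.68 for Abca4, 0.52 for Clic6, 0.43 for Aqp1 and 0.42 for Otx2. Without WT stress 2 and CAA stress 1, the libraries farthest from the median, r remained 0.92 for Kl, 0.83 for Ttr, 0.81 for Folr1 and 0.75 for Slc4a5, was 0.50 for Sostdc1, and was 0.03 for Enpp2, 0.12 for Clic6, -0.24 for Aqp1, -0.11 for Abca4 and -0.11 for Otx2. The closest pair was Ttr and Slc4a5 (r = 0.95), followed by Ttr and Kl (r = 0.94), and Aqp1 lay closest to Abca4 (r = 0.89).

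The rest of the transcriptome was ranked by likeness to the mean of the 10. Among 13579 genes with at least 1 CPM on average and a regular symbol, the most alike were Mfrp (r = 0.97), a frizzled-related membrane protein, Kcne2 (0.96), Slc2a12 (0.95), a sugar transporter, Drc7 (0.94) and Dnali1 (0.93), parts of the motile cilium, Ino80e (0.94), Ak7 (0.94), an adenylate kinase of motile cilia, F5 (0.94), Grk4 (0.93) and Slc35c2 (0.92). Ino80e and Slc35c2 varied little: Ino80e lay between 4.10 and 4.49 log2 CPM. Kcne2, Slc2a12 and F5 are on the choroid plexus lists and Ak7 on the ependymal list. Clone-style symbols, the members and genes under 1 CPM were left out of this ranking. Over all genes tested, with none of these left out, 1500015O10Rik (r = 0.99) ranked 1 and 2900040C04Rik (r = 0.98) ranked 3. Both are on the choroid plexus lists. The value of 2900040C04Rik rests on few counts: 12 and 0 in CAA stress 1 and 2, 4 and 0 in CAA mock, 0 and 13 in WT stress, and 2 and 0 in WT mock. 1500015O10Rik was at 7.28 and 1.70 FPKM in CAA stress 1 and 2, 4.36 and 0.930 in CAA mock, 1.56 and 10.5 in WT stress, and 1.71 and 0.987 in WT mock. No share of function or control follows from r.

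The ependymal markers were highest in the same libraries as the members. Of 12 listed, 11 were tested and 1 was at 0 in every library, and they summed to 23.7 to 43.1 CPM in CAA stress, 24.6 to 37.1 in CAA mock, 17.0 to 47.3 in WT stress and 19.3 to 21.2 in WT mock. Foxj1, the master factor of motile cilia, named after its values were seen, was at 4.49 and 1.74 FPKM in CAA stress 1 and 2, 3.04 and 2.81 in CAA mock, 1.26 and 3.70 in WT stress, and 2.56 and 1.17 in WT mock. For stress averaged, 11 of 11 ependymal genes had a positive log2 fold change (median 0.36), against 50.6% of all genes. In edgeR 0 passed, as for 0% of all genes, and 0 had an unadjusted p under 0.05, against 3.82% of all genes. Another 5 genes were listed for fenestrated vessels, such as those of the choroid plexus stroma, and whether they are specific to them was not tested. They summed to 51.8 to 65.0 CPM in CAA stress, 65.2 to 65.5 in CAA mock, 54.0 to 58.4 in WT stress and 57.7 to 60.3 in WT mock. The most abundant, Rgcc and Cd24a, had 220 to 512 and 192 to 408 counts, against 93 to 180 for Plvap. The sum is therefore not a measure of fenestrated vessels alone. For stress 2 of the 5 were positive (median -0.26, against 50.6% of all genes positive), 0 passed in edgeR, and Plvap and Esm1 had an unadjusted p under 0.05, against 3.82% of all genes. Plvap, the diaphragm protein of fenestrae, named after its values were seen like Esm1, was at 4.88 and 4.45 FPKM in CAA stress, 2.79 and 2.62 in CAA mock, 2.81 and 3.76 in WT stress, and 3.24 and 2.94 in WT mock. Its log2 fold change for stress was 0.44 ± 0.18 (edgeR unadjusted p = 0.0337, adjusted p = 0.920). That of Esm1, an endothelial proteoglycan, was -1.99 ± 0.75 (edgeR unadjusted p = 0.0222, adjusted p = 0.920). Esm1 had 1 and 0 counts in CAA stress 1 and 2, against 19 and 6 in CAA mock. In WT it had 11 and 8 counts under stress and 8 and 6 under mock. The lower Esm1 level under stress thus came from the CAA libraries and rests on few counts. The part of ependymal tissue in the members' values was not tested.

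The retina, a known site of Otx2 and Abca4, and the pineal were checked by their markers. The 9 retinal and pineal markers, 3 of them tested and 1 at 0 in every library, summed to 3.54 to 4.20 CPM in CAA stress, 3.83 to 3.97 in CAA mock, 3.03 to 4.65 in WT stress and 4.63 to 5.67 in WT mock. The 6 pituitary markers, 3 of them at 0 in every library, summed to 1.64 to 6.71 CPM. The 18 glucocorticoid-responsive genes had a median log2 fold change of 0.13 for stress averaged, with 14 positive, against 50.6% of all genes. None passed in edgeR (0 of 18), as for 0% of all genes, and 4 of 18 had an unadjusted p under 0.05, against 3.82% of all genes.

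**Figure D4:**
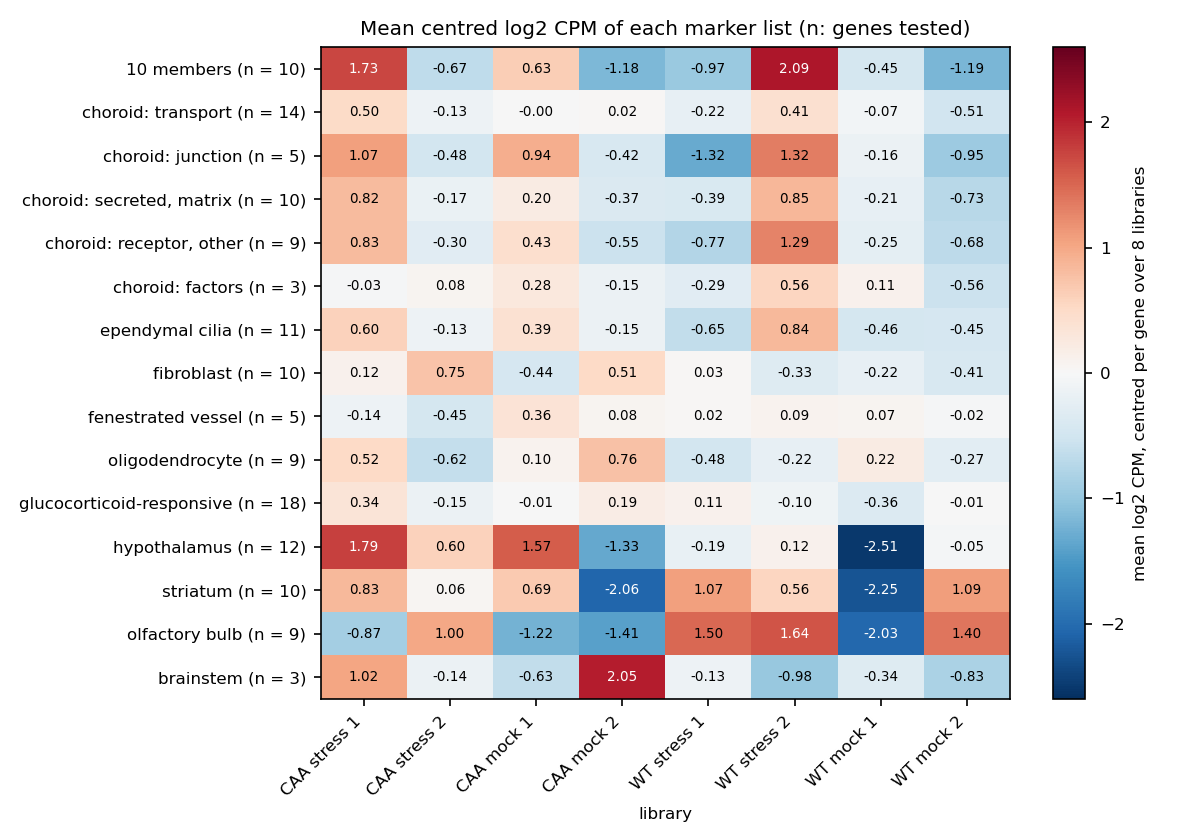
Mean level of each marker list in each library (colour and printed value, log2 CPM centred per gene over the 8 libraries, n is the number of genes tested). The members, the choroid plexus junction and receptor lists and the ependymal list are highest in WT stress 2 and CAA stress 1, while the striatal list is lowest in WT mock 1 (-2.25) and CAA mock 2 (-2.06).

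Genes that act with the members were also listed (folate carriers, thyroid hormone transporters and receptors, klotho and FGF genes, lysophosphatidic acid receptors, BMP and Wnt components and retinoid carriers), 30 in all with 25 tested. For stress averaged 13 were positive and 12 negative (median 0.01), against 50.6% of all genes positive. None passed in edgeR (0 of 25), as for 0% of all genes, and 3 of 25 had an unadjusted p under 0.05, against 3.82% of all genes. Named after their values were seen, these were Stra6, a receptor for retinol uptake (0.76 ± 0.23), Slc19a1, the reduced folate carrier (0.35 ± 0.15), and Plpp3, a lipid phosphatase that degrades lysophosphatidic acid (-0.33 ± 0.15), each with an edgeR adjusted p of 0.920. For Slc19a1 the log2 fold change for stress was 0.62 within CAA mice and 0.07 within WT mice. It was 1.06 and 0.46 for Stra6, and -0.28 and -0.39 for Plpp3. Slc46a1, the proton-coupled folate transporter that works with Folr1, stayed within 4.06 to 4.53 FPKM. Thra, the thyroid hormone receptor alpha gene and the most abundant of the list, lay at 151 and 162 FPKM in CAA stress, 179 and 128 in CAA mock, 126 and 137 in WT stress, and 125 and 141 in WT mock. Neither followed Ttr. Dio2, which activates thyroxine in glia, was at 17.2 and 16.8 FPKM in CAA stress, 24.5 and 20.4 in CAA mock, 38.3 and 23.7 in WT stress, and 19.3 and 44.5 in WT mock, so that WT mock 2 and WT stress 1 were highest, and it was chosen after its values were seen.

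In the mm10 coordinates of the deposited tables Ttr (ENSMUSG00000061808) lies on chromosome 18 from 20665250 to 20674324, plus strand, and Abca4 (ENSMUSG00000028125) on chromosome 3 from 122044443 to 122180123, plus strand. Otx2 (ENSMUSG00000021848) lies on chromosome 14 from 48657677 to 48673819, minus strand. Folr1 (ENSMUSG00000001827) on chromosome 7, from 101858331 to 101870788 on the minus strand, overlaps Anapc15 on the other strand, which had 115 to 183 counts.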

How the data were processed

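RNA was extracted with RNeasy columns and made into Illumina libraries, per the labels' protocols. The authors deposited raw read counts per gene for 8 libraries, aligned with HISAT2 2.0.5 and counted with featureCounts 1.5.0-p3 on mm10, per the submitters' processing notes, and the authors deposited FPKM per gene; the sources used here do not give the FPKM formula, strand setting or annotation release. Totals were 17275201 to 18894657 counts, and the binomial intervals of ratios to Ttr cover counting error only; intervals of log2 fold changes come from the fit and include the spread between libraries.

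Counts were tested with edgeR 4.0.16 (R 4.3.3): filterByExpr (minimum count 10, total 15; 17182 genes kept), TMM scaling, and a robust quasi-likelihood fit of 4 group means over 8 libraries, with 4 residual degrees of freedom. SE is the log2 fold change divided by the root of F. P-values are two-sided, adjusted by Benjamini-Hochberg over all genes tested at 0.05. Log2 CPM used a prior count of 2. The script was tested on simulated data. Replicates of each group differed beyond sampling noise (chi-square over its degrees of freedom 13.4 to 24.4), so none was merged. Alternatives were DESeq2 1.42.0 and its size factors, no filter, a replicate block, fewer libraries, a sex term and limma 3.58.1 on log2(FPKM + 1) or log2(FPKM + 0.1). Named are all 10 members, the 2 most abundant genes of a list, and the 10 genes most alike; others are marked as chosen later, and 1 gene named by this rule is not reported here. Members, lists and tests were chosen with earlier results of these data known.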

Additional observations from a re-analysis of the deposited data

Results flagged for a closer look

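The 4 libraries of each treatment and of each genotype were examined for a library far from the rest, over 10 genes, and 1 of 40 sets stood out; chance gives about 1 in 20. Sostdc1 was at 1.23, 1.01, 1.02 and 0.112 CPM in CAA mock 1, CAA mock 2, WT mock 1 and WT mock 2. The gap of WT mock 2 to its neighbour was 0.903 of the whole range on the log2 scale, above the limit of 0.829. It rests on 2 counts.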

How the results depend on the processing

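No member passed in any of the 7 comparisons under DESeq2, DESeq2's size factors, the replicate block, limma on log2 FPKM or the sex term. A fit of the compared libraries alone was run only for the comparisons within a genotype or a treatment, and no member passed there. With no filter on low counts, 2 members passed for stress averaged and 1 for stress in WT, while the count over all genes was 49 and 11; the cause was not tested. Genes called over the whole table ranged over the settings from 0 to 49 for stress averaged (0 as reported, 3 with DESeq2), 0 to 11 for stress in WT (0), 0 to 112 for stress in CAA (0; 14 with DESeq2), 1 to 223 for CAA averaged (2; 49 with DESeq2), 0 to 82 for CAA under mock (2; 19 with DESeq2), 0 to 120 for CAA under stress (2; 11 with DESeq2) and 0 to 17 for the interaction (0; 1 with DESeq2).

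The members' median for stress averaged kept its sign, from 0.19 to 1.95 without each library in turn. The others did not: -0.25 to 2.45 for stress in WT, -0.90 to 2.19 for stress in CAA, -0.52 to 1.44 for CAA averaged, -0.30 to 1.82 for CAA under mock, -1.31 to 1.87 for CAA under stress and -2.03 to 1.39 for the interaction. With the sex term the median was -0.79 for stress in CAA, where Ttr was -3.44, and -3.11 for the interaction. Single genes also changed sign without a library. Ttr ranged from -0.47 to 4.82 for stress averaged (negative without CAA stress 1), from -1.17 to 6.10 for stress in WT and from -4.45 to 6.13 for stress in CAA. Slc4a5 ranged from -2.35 to 4.83 for stress averaged (negative without WT stress 2 or CAA stress 1) and Otx2 from -2.14 to 0.90. Otx2 was 0.043 with the sex term and 1.5 without WT mock 1 and CAA mock 2. Aqp1 ranged from -0.83 to 0.82 for CAA averaged and was 0.71 for stress averaged without WT mock 1 and CAA mock 2. On log2(FPKM + 1) the log2 fold change of Abca4 was 0.30, since the pseudocount exceeds its level.

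Deviations of same-numbered libraries from their group means correlated at -0.27 to 0.14. Tissue content also enters these deviations, so the check cannot show whether the replicate number pairs libraries. With the replicate block the median for stress averaged was 1.53 and 0 members passed. With the block the median for CAA averaged was -0.06, against 0.12 without it. Depth limits Slc4a5, with 3 counts or fewer in 4 libraries, and Folr1, Sostdc1 and Otx2, with 3 or fewer in 1 library each.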

Other observations

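Igf2 and Prlr, from the choroid plexus lists, are named after their values were seen. Igf2, the growth factor made by choroid plexus and meninges, had 13 and 23 counts in CAA stress 1 and 2, 4 and 28 in CAA mock, 14 and 10 in WT stress, and 4 and 10 in WT mock. It was highest in CAA mock 2 and CAA stress 2, which had 47 and 69 Ttr counts. The 10 fibroblast and meningeal markers were highest in the same libraries, at 143 CPM summed in CAA stress 2 and 137 in CAA mock 2, against 65.3 to 91.2 elsewhere. Prlr, the prolactin receptor, had 167 and 140 counts in CAA stress, 123 and 94 in CAA mock, 39 and 309 in WT stress, and 55 and 88 in WT mock. It was highest in WT stress 2, as the members were.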
